A study of Homo sapiens with 14 samples.

Results

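The 41 genes of DNA replication and origin licensing were followed across 14 RNA-seq libraries of IMR90, a line of human lung fibroblasts. They were chosen by symbol from known replication functions, and all 41 were found among the 54628 gene symbols that the deposited files list. Untreated cells (WT) and untreated cells with an siRNA against HMGB2 (siHMGB2), a chromatin protein, gave 2 libraries each. Senescence, a lasting exit from the cell cycle, was induced with 10 µM inflachromene (ICM), which binds HMGB1 and HMGB2, for up to 6 days. ICM alone gave 4 libraries, and ICM together with a knockdown labelled siSRRM2, siBANF1 or siCTCF gave 2 each. SRRM2 is a scaffold of nuclear speckles, BANF1 binds chromatin and the nuclear lamina, and CTCF organises chromatin loops. Titles of ICM 3, ICM 4 and both siCTCF libraries are written differently from the rest, and their cell line field gives other names than their titles. They were treated as a second set, so siCTCF was compared with ICM 3-4, and siSRRM2 and siBANF1 with ICM 1-2. No WT library belongs to the second set, so in ICM 3-4 against WT the treatment and the set cannot be told apart. The labels name more than 1 isolate of the line, at passage 5, without saying which library came from which isolate. No label says that replicates were separate cultures, so the p-values measure only the spread between these libraries, which may be technical.

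Before a cell copies its DNA, origins are licensed: ORC marks the site, CDC6 and CDT1 load the MCM2 to MCM7 helicase in an inactive form, and geminin (GMNN) blocks CDT1 once replication has begun. CDC45, the GINS complex and MCM10 then activate the helicase, polymerases alpha, delta and epsilon copy the strands, and the clamp PCNA, placed by the RFC loader, holds polymerases on DNA. Many of these genes are driven by E2F factors at the entry into S phase and are held down by RB and DREAM complexes in cells that have left the cycle.

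To show what the start regions of these genes hold, 8 promoters are printed in 4 pairs of related function. In each pair the first gene fell in both sets of ICM libraries, and the second behaved differently in at least 1 set. The sequences are from RefSeq on GRCh38.p14, run 5′ to 3′ on the gene's strand from 200 bases before the start base through 30 bases counted from it. Capitals mark the E2F letters TTTCCCGC, TTTCGCGC, TTTGCCGC and TTTGGCGC and the letters CCAAT, each on either strand. RRM2 and PCNA have 2 windows each, and the one with more of these letters is shown.
MCM6 (chr2:135876414-135876643, minus strand): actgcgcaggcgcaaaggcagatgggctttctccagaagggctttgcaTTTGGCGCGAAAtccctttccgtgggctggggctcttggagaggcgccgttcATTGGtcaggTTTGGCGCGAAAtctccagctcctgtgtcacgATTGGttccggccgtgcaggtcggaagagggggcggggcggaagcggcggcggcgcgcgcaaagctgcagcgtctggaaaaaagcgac
MCM3 (chr6:52284713-52284942, minus strand): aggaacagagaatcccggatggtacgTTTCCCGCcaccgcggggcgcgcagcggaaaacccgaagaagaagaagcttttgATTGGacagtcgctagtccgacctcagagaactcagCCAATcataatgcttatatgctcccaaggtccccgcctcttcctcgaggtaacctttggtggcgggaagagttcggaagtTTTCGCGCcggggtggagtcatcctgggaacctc
CDT1 (chr16:88803589-88803818, plus strand): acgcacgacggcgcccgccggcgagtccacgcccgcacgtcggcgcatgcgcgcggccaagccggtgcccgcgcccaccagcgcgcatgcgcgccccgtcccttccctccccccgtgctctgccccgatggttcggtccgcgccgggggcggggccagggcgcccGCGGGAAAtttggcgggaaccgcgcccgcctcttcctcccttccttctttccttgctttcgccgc
CDC6 (chr17:40287679-40287908, plus strand): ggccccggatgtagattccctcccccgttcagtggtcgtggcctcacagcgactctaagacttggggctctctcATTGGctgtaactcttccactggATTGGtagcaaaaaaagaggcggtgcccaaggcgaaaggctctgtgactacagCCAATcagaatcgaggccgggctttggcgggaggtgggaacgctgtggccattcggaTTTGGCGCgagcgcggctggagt
RRM2 (chr2:10122539-10122768, plus strand): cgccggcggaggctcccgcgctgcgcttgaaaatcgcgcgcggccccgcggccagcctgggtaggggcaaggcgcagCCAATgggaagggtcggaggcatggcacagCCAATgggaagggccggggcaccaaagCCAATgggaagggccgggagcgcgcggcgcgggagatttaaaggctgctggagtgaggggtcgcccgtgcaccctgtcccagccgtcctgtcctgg
RRM1 (chr11:4094485-4094714, plus strand): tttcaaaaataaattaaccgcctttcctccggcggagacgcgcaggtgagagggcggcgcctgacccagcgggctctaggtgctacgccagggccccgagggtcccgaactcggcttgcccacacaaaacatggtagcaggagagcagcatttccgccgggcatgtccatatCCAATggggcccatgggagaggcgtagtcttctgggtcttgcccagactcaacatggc
DTL (chr1:212035548-212035777, plus strand): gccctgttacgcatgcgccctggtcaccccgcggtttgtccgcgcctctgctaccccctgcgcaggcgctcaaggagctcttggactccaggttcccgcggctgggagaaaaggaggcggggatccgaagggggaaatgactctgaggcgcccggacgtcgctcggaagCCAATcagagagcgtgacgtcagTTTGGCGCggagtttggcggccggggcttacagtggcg
PCNA (chr20:5126593-5126822, minus strand): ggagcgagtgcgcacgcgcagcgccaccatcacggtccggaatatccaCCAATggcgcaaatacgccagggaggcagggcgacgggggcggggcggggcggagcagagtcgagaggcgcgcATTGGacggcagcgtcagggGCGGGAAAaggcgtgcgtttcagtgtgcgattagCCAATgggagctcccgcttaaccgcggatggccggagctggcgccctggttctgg

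Such E2F letters lay within the window of 250 bases before and 50 bases after a start in 22 of the 37 replication genes that had an entry (59.5%), against 3.99% of 27305 genes. CCAAT was present in 24 of the 37 (64.9%), against 39.72% of all genes. The letters TTTGAA or TTCGAA, the core of the cell cycle element called CHR, were present in 2 of the 37 (5.4%), in MCM6 and RRM1, against 19.54% of all genes. MCM6 held 2 pairs of overlapping E2F letters on opposite strands, starting 152 and 148 bases and 90 and 86 bases before the start base. RRM2, RRM1, MCM10 and CDC45 held none of the E2F letters in their windows. Of the genes described below as lower in both ICM sets, 7 of the 12 with a window held E2F letters, and of those called in neither set 12 of 18 did. The letters were therefore present on both sides of that division, and a match is a description of the sequence and not a measured binding site.

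The libraries differed in more than treatment. Gene counts ran from 22336161 to 58257456 per library, and all 41 genes passed the filter on low counts. Small RNA genes took 3.19% to 6.06% of the counts in ICM 1-2 and the libraries labelled siSRRM2 and siBANF1. In the other 8, WT among them, they took at most 0.0081%. Mitochondrial mRNA took 3.54% and 3.11% in WT, against 0.454% and 0.068% in ICM 1 and ICM 2. ICM 3 and ICM 4 had 0.241% and 0.252%. In ICM 1-2 against WT, the treatment and these differences in composition therefore cannot be told apart. Counts were scaled by TMM before testing, while levels are given as CPM, a count over the library total. ICM 1 and siBANF1 1 stood apart from the rest of their set, with 16.35% and 18.44% of reads outside annotated features. Counts that follow are given with both of them left out where that moves a result. HMGB2 fell from 27.68 and 28.01 CPM in WT to 3.18 and 3.52 in siHMGB2. The libraries labelled siBANF1 had BANF1 at 16.96 and 36.72 CPM, against 13.52 and 32.72 in ICM 1-2, so the labelled target was not lower there. Those labelled siSRRM2 held 1524 and 1541 reads of BANF1, against 660 and 1776 in ICM 1 and ICM 2, so neither lay below ICM 1. SRRM2 was lower in the libraries labelled siBANF1 (58.98 and 17.01 CPM) than in those labelled siSRRM2 (76.05 and 76.42) and in ICM 1-2 (237.8 and 112.4), and the names of the deposited files carry the other knockdown for these 4. CTCF read 71.5 and 22.97 CPM in siCTCF against 94.87 and 91.92 in ICM 3-4. All 10 lung fibroblast markers were at 1 CPM or more in every library, but their summed level was 27655 and 36298 CPM in WT, 24015 and 5118 in ICM 1 and ICM 2, and 5053 and 2499 in ICM 3 and ICM 4. All 4 were below WT, and ICM 1 was the nearest to it. Of 12 markers of epithelial, endothelial, immune and muscle cells, 1 to 3 reached 1 CPM in any library, and the alveolar marker SFTPC had no count in any of the 14. Their summed level was 49.2 and 44.5 CPM in WT, 32.7 and 145 in ICM 1 and ICM 2, and 195 and 177 in ICM 3 and ICM 4, of which KRT18, a keratin, held 46.1 and 42.7, 17.7 and 144, and 194 and 176 CPM. The part of these markers in the results was not tested. In bulk RNA, fewer cells of a kind and less RNA per cell cannot be told apart.

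In ICM 1-2 against WT, 18 of the 41 replication genes fell and none rose by edgeR's quasi-likelihood test at a Benjamini-Hochberg adjusted p under 0.05, where 13.5% of 19126 genes were called (6.87% lower and 6.63% higher). Their median log2 fold change was -1.31, against 0.10 over all genes tested. In ICM 3-4 against the same WT libraries 17 fell and none rose, where 30.3% of all genes were called (16% lower and 14.3% higher), and the medians were -0.77 and -0.02. The sums of the 41 genes were 699 and 671 CPM in WT, 305 and 491 in ICM 1 and ICM 2, and 520 and 589 in ICM 3 and ICM 4. The 14 genes that fell in both sets were CDT1, MCM5, MCM6, MCM7, MCM10, CDC45, GINS2, GINS4, RFC3, RRM2, CLSPN, TIMELESS, CHAF1B and DTL. Since both comparisons use the same WT libraries, this overlap is given as a count alone. ORC1, POLD1, TYMS and CHAF1A were called in ICM 1-2 alone, POLA1, POLE2 and RRM1 in ICM 3-4 alone, and 20 genes in neither. The libraries labelled ICM 1-2 lay below both WT libraries for 30 genes and above both for 1 (75.6% without overlap). Over all genes 57.3% did not overlap, 25% lower and 32.3% higher. ICM 3-4 lay below for 26 and above for 7 (80.5%), where 75.9% of all genes did not overlap, 33.3% lower and 42.6% higher.

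**Figure D1:**
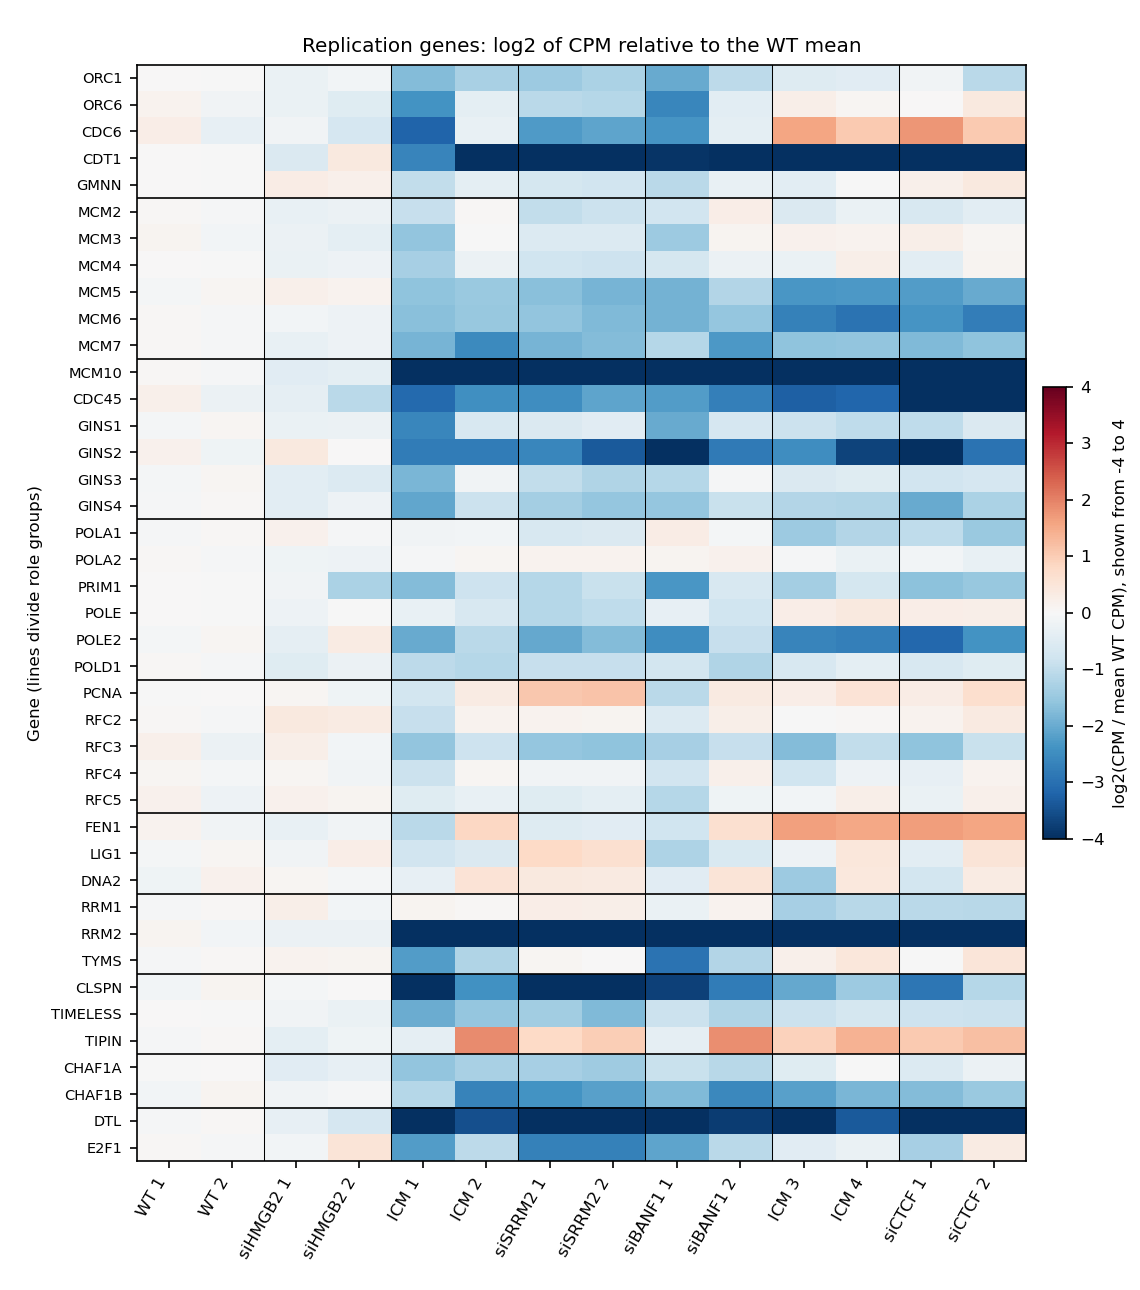
Each cell is the log2 of a gene's CPM in a library over the mean of both WT libraries, for 41 genes (vertical, divided by role) in 14 libraries (horizontal), with the colour held at -4 and 4. The rows of RRM2, MCM10 and DTL are dark blue in all 10 ICM-treated libraries, where they lay below 10% of the WT mean, while FEN1, CDC6 and TIPIN turn red in ICM 3-4 and siCTCF. TIPIN and FEN1 are also red in ICM 2 (372% and 177% of the WT mean) and siBANF1 2 (365.4% and 155.8%). TIPIN is red in siSRRM2 too (173.6% and 198.2%).

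The number of genes called depended on which libraries set the spread. A fit to the 4 compared libraries alone called only RRM2 in ICM 1-2 against WT, where 0.173% of all genes were called. It called 24 of the 41 in ICM 3-4 against WT (21 lower, with CDC6, FEN1 and TIPIN higher), where 47% of all genes were called. Without the library WT 1 or WT 2 the first count was 10 or 9 (2.94% or 2.85% of all genes called), and without ICM 4 the second was 11 (12.8% of all genes). With ICM 1 and siBANF1 1 both left out, which leaves ICM 2 as the only library of its group and assumes that it varies like the others, the counts were 23 (21 lower) and 28 (25 lower), with FEN1 and TIPIN higher in each, and 45.9% and 54.8% of all genes were then called. DESeq2 called 22 (all lower) and 19 (18 lower), where it called 21% and 38.1% of all genes.

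Among the licensing genes, CDT1, the factor whose supply limits helicase loading, changed most. CDT1 was at 4.71 and 4.55 CPM in WT, 0.738 and 0.240 in ICM 1 and ICM 2, and 0.167 and 0.0394 in ICM 3 and ICM 4, which is 4 and 1 reads in the last pair. No ICM library came near WT, and the log2 fold changes were -3.34 ± 0.74 (SE, edgeR adjusted p = 0.0164) in ICM 1-2 and -5.68 ± 0.90 (edgeR adjusted p = 0.00211) in ICM 3-4. CDC6, its partner in loading, did otherwise: it was at 11.3 and 7.44 CPM in WT, 1.02 and 7.57 in ICM 1 and ICM 2, and 27.9 and 19.5 in ICM 3 and ICM 4. CDC6 passed the test in neither set (log2 fold change -1.31 ± 0.76 and 1.11 ± 0.76, edgeR adjusted p = 0.271 and 0.278), although both ICM 3-4 libraries lay above both WT libraries. GMNN, the inhibitor of CDT1, read 11.5 and 11.2 CPM in WT, 5.70 and 8.75 in ICM 1-2, and 8.45 and 11.2 in ICM 3-4, and was not called. ORC1, the subunit of ORC that varies through the cell cycle, fell in ICM 1-2 (log2 fold change -1.65 ± 0.43, edgeR adjusted p = 0.031) and had -0.72 ± 0.42 in ICM 3-4, and ORC6 was called in neither. The count ratio of CDT1 to CDC6, which needs no scaling between libraries and was chosen after the values were seen, was 0.418 and 0.613 in WT, 0.72 and 0.0316 in ICM 1 and ICM 2, and 0.00599 and 0.00202 in ICM 3 and ICM 4. ICM 1 alone of these 4 was above the WT range.

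**Figure D2:**
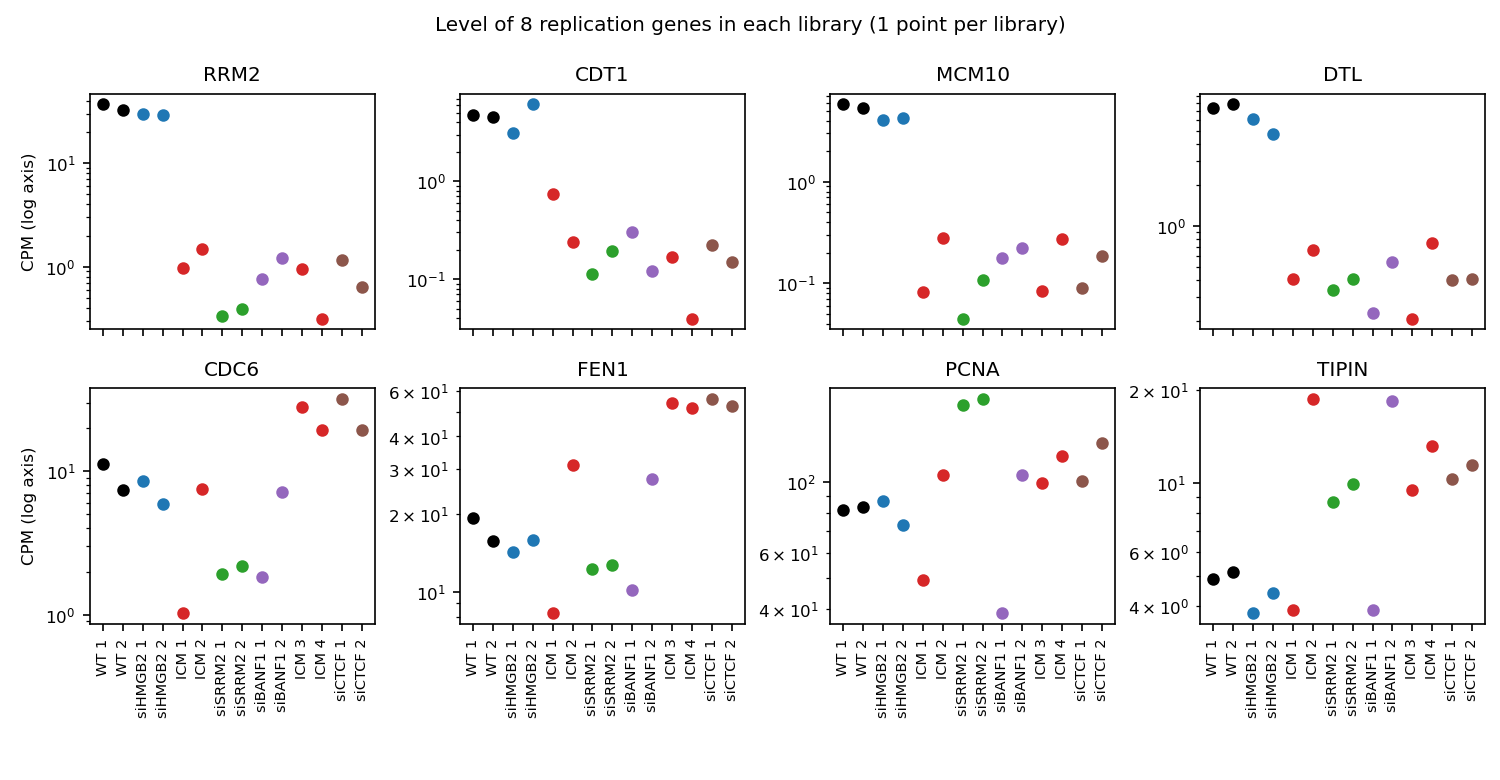
Points are CPM of 8 genes (log axis) in each of the 14 libraries, coloured by group (black WT, blue siHMGB2, red ICM, green siSRRM2, purple siBANF1, brown siCTCF). RRM2, CDT1, MCM10 and DTL are low in all ICM-treated libraries, whereas CDC6, FEN1, PCNA and TIPIN lie lower in ICM 1 than in ICM 2 (TIPIN 3.89 and 18.7 CPM).

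The 6 subunits of the MCM2 to MCM7 ring, which work as one complex of equal parts, did not fall equally. MCM5, MCM6 and MCM7 fell in both sets, while MCM2, MCM3 and MCM4 were called in neither. MCM6 was at 28.9 and 26.9 CPM in WT, 8.67 and 9.82 in ICM 1-2, and 4.27 and 3.63 in ICM 3-4, with log2 fold changes of -1.73 ± 0.26 (edgeR adjusted p = 0.00321) and -3.06 ± 0.28 (edgeR adjusted p = 0.000213). MCM5 went from 15.3 and 16.8 CPM to 5.23 and 5.71, and to 3.18 and 3.27. MCM7 went from 75.4 and 69.6 CPM to 20.1 and 12.4, and to 23.6 and 24.2 (log2 fold change -2.27 ± 0.40 and -1.84 ± 0.39). For these 3 subunits the ICM and WT libraries did not overlap. MCM3 was at 39.1 and 33.6 CPM in WT, 12.1 and 36.3 in ICM 1 and ICM 2, and 40.8 and 40.1 in ICM 3 and ICM 4, so that ICM 1 alone was low. MCM4 (38.1 and 36.6 in WT, 14.7 and 31.9 in ICM 1-2, 31.0 and 43.5 in ICM 3-4) and MCM2 (19.8 and 18.2 in WT, 10.0 and 19.4 in ICM 1-2, 12.7 and 15.7 in ICM 3-4) were also lower in ICM 1 than in ICM 2. Within the counts of the ring, with no correction for transcript length, MCM6 made up 13.4% and 13.3% in WT, 12.2% and 8.50% in ICM 1 and ICM 2, and 3.69% and 2.78% in ICM 3 and ICM 4. MCM3 went from 18.1% and 16.7% in WT to 17.0% and 31.4%, and to 35.3% and 30.8%. The counts of MCM6 per count of MCM3 were 0.74 and 0.799 in WT, 0.718 and 0.271 in ICM 1 and ICM 2, and 0.105 and 0.0905 in ICM 3 and ICM 4, so ICM 1 was close to WT and the other 3 were not. MCM2 shares exon bases with genes on the opposite strand (23.6% of them), and whether the counting used strand is not given in the sources used here, so its level is uncertain. The same holds for GINS4 (23.6%), and on the same strand POLA2 (35.1%) and RRM2 (20.2%) share exon bases with other annotated genes.

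**Figure D3:**
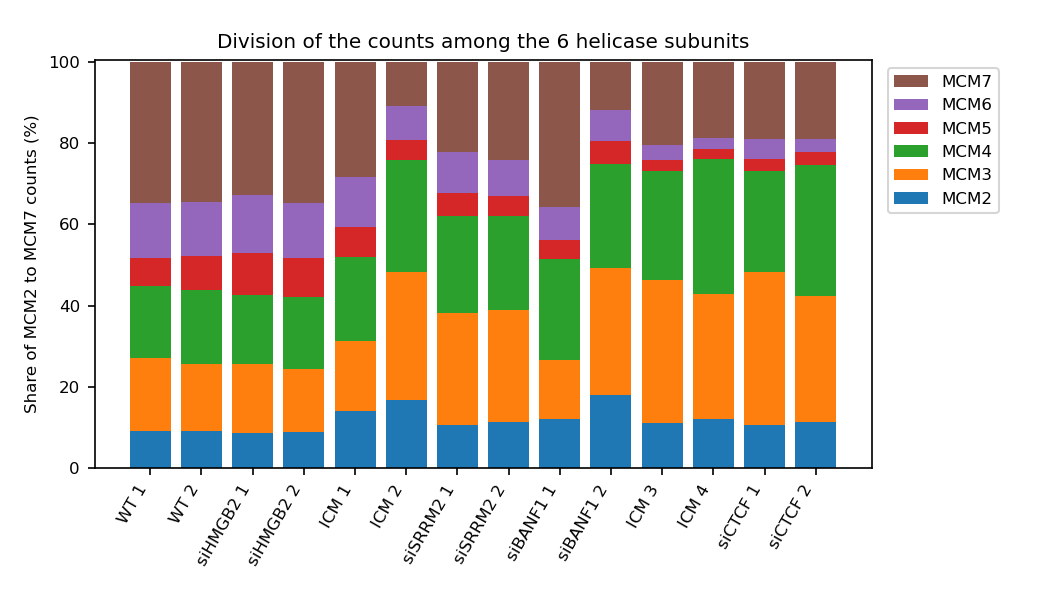
Bars divide the counts of MCM2 to MCM7 in each library into the 6 subunits, in percent of their sum. MCM6 and MCM5 are thin in ICM 3-4 and siCTCF, and ICM 1 and siBANF1 1 keep a larger MCM7 share (28.4% and 35.6%) than ICM 2 and siBANF1 2 (10.7% and 11.8%).

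Of the 6 factors that turn the loaded helicase on, 4 fell in both sets. MCM10, which helps to open the double helicase, was at 5.78 and 5.32 CPM in WT, 0.0820 and 0.276 in ICM 1-2, and 0.0837 and 0.276 in ICM 3-4, no more than 15 reads in any of these ICM libraries. Its log2 fold changes were -5.08 ± 0.65 (edgeR adjusted p = 0.00138) and -5.17 ± 0.68 (edgeR adjusted p = 0.001). CDC45, a stable part of the moving helicase, was at 6.50 and 4.77 CPM in WT, 0.656 and 1.03 in ICM 1-2 and 0.586 and 0.631 in ICM 3-4 (log2 fold change -2.88 ± 0.46 and -3.45 ± 0.48). Of the GINS complex, GINS2 fell by 2.92 and 3.18 on the log2 scale and GINS4 by 1.49 and 1.43. GINS1 (-1.49 ± 0.55 and -1.17 ± 0.55) and GINS3 were not called. GINS3 read 3.07 and 3.37 CPM in WT, 0.902 and 2.93 in ICM 1 and ICM 2, and 2.18 and 2.29 in ICM 3 and ICM 4, all below WT.

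The polymerases moved less than the factors that turn the helicase on, with median log2 fold changes of -0.91 against -2.19 in ICM 1-2. In ICM 3-4 the medians were -1.01 and -2.31, and that of all 41 genes was -0.77. Which of the polymerase genes fell differed by set. POLE2, the second subunit of the leading strand polymerase epsilon, was at 1.49 and 1.65 CPM in WT, 0.389 and 0.737 in ICM 1-2 and 0.251 and 0.237 in ICM 3-4, and was called in ICM 3-4 alone (log2 fold change -2.91 ± 0.63, edgeR adjusted p = 0.00814). POLE, its catalytic subunit, was not called and lay above both WT libraries in ICM 3-4, at 25.1 and 27.4 CPM against 21.1 and 20.9. POLA1, the catalytic subunit of polymerase alpha, which starts each new strand, read 7.63 and 8.15 CPM in WT, 7.13 and 7.26 in ICM 1-2, and 2.89 and 3.51 in ICM 3-4. It therefore fell in ICM 3-4 (log2 fold change -1.55 ± 0.31, edgeR adjusted p = 0.00645), with -0.27 ± 0.30 in ICM 1-2. POLA2, its partner subunit, kept a narrow range in all 14 libraries, between 8.78 and 12.1 CPM. POLD1, the catalytic subunit of polymerase delta, fell in ICM 1-2 (log2 fold change -1.22 ± 0.27, edgeR adjusted p = 0.0173), and PRIM1, the primase, had -1.36 ± 0.55 and -1.25 ± 0.56 and was called in neither set.

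The clamp and most of its loader were not called. PCNA was at 81.5 and 83.4 CPM in WT, 49.2 and 104.6 in ICM 1 and ICM 2, and 99.3 and 119.9 in ICM 3 and ICM 4, so that ICM 1 alone lay below WT. Of the 4 loader subunits RFC2 to RFC5, RFC3 fell in both sets, from 7.81 and 5.71 CPM in WT to 2.27 and 3.81, and to 2.05 and 3.39 (log2 fold change -1.30 ± 0.37 and -1.56 ± 0.38, edgeR adjusted p = 0.044 and 0.0136). Its call in ICM 1-2 was lost under 9 alternative settings and kept under 5. The lagging strand genes FEN1, LIG1 and DNA2 were called in neither set. FEN1, the nuclease that trims primers, was singled out after its values were seen: it read 19.3 and 15.8 CPM in WT, 8.24 and 31.0 in ICM 1 and ICM 2, and 54.1 and 51.4 in ICM 3 and ICM 4. Its log2 fold change in ICM 3-4 was 1.35 ± 0.51 (edgeR adjusted p = 0.0662) with all 14 libraries in the fit. LIG1, the ligase that seals the fragments, was at 10.99 and 12.2 CPM in WT, 6.80 and 7.72 in ICM 1-2 and 9.96 and 16.0 in ICM 3-4, and DNA2 spread from 1.63 in ICM 3 to 5.95 in ICM 4. Pseudogene copies are annotated for PCNA, FEN1, RFC3, RFC5, RRM2 and TYMS, so reads may have been divided or lost there.

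The genes that supply nucleotides parted from each other. RRM2, the regulated subunit of ribonucleotide reductase, was at 37.2 and 32.5 CPM in WT, 0.963 and 1.49 in ICM 1-2 and 0.962 and 0.315 in ICM 3-4. This was the largest fall among the 41 in ICM 3-4, with a log2 fold change of -5.99 ± 0.56 (edgeR adjusted p = 0.00023), and -4.97 ± 0.52 (edgeR adjusted p = 0.000476) in ICM 1-2. RRM1, the large subunit of the same enzyme, read 52.2 and 55.3 CPM in WT and 58.4 and 55.3 in ICM 1-2, but 21.3 and 24.9 in ICM 3-4 (log2 fold change -1.46 ± 0.21, edgeR adjusted p = 0.0015). RRM2 per RRM1 count was 0.713 and 0.587 in WT and between 0.0127 and 0.0452 in the 4 ICM libraries. TYMS, which makes thymidylate and was singled out after its values were seen, differed between the sets: it read 29.9 and 32.0 CPM in WT, 6.52 and 13.5 in ICM 1-2, and 35.6 and 42.7 in ICM 3-4. It fell in ICM 1-2 (log2 fold change -1.79 ± 0.45, edgeR adjusted p = 0.0278) and was not called in ICM 3-4 (0.09 ± 0.44, edgeR adjusted p = 0.894). Of its exon bases, 46.6% are shared with ENOSF1 and TYMSOS on the other strand, so its counts are uncertain.

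Among the fork protection genes, CLSPN (claspin), which passes the checkpoint signal at stalled forks, was at 5.93 and 6.80 CPM in WT, 0.369 and 1.20 in ICM 1-2 and 1.55 and 2.33 in ICM 3-4. TIMELESS fell in both sets (log2 fold change -1.89 ± 0.27 and -1.02 ± 0.26), while TIPIN, the protein that pairs with it, was above 0 in both (0.99 ± 0.67 and 0.92 ± 0.67) and was not called. TIPIN read 4.89 and 5.16 CPM in WT, 3.89 and 18.7 in ICM 1 and ICM 2, and 9.50 and 13.1 in ICM 3 and ICM 4, so only ICM 1 overlapped with or lay below WT. TIPIN shares 21% of its exon bases with a pseudogene on the same strand. Of the chromatin assembly factor that places histones on new DNA, CHAF1B fell in both sets, from 4.38 and 5.08 CPM to 2.13 and 0.737, and to 1.05 and 1.34. The CHAF1B call in ICM 1-2 was lost under 8 alternative settings and kept under 6. CHAF1A fell in ICM 1-2, from 18.8 and 19.6 CPM to 6.39 and 7.79, and read 13.9 and 18.9 in ICM 3-4. DTL, the adaptor through which CDT1 is degraded in S phase, was at 7.39 and 7.85 CPM in WT, 0.410 and 0.663 in ICM 1-2 and 0.209 and 0.749 in ICM 3-4 (log2 fold change -3.96 ± 0.56 and -4.24 ± 0.58, edgeR adjusted p = 0.00214 and 0.00121). E2F1, the activator of this gene programme, read 5.75 and 5.30 CPM in WT, 1.17 and 2.67 in ICM 1-2 and 4.06 and 4.57 in ICM 3-4, and did not pass the test (edgeR adjusted p = 0.0619 and 0.403).

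**Figure D4:**
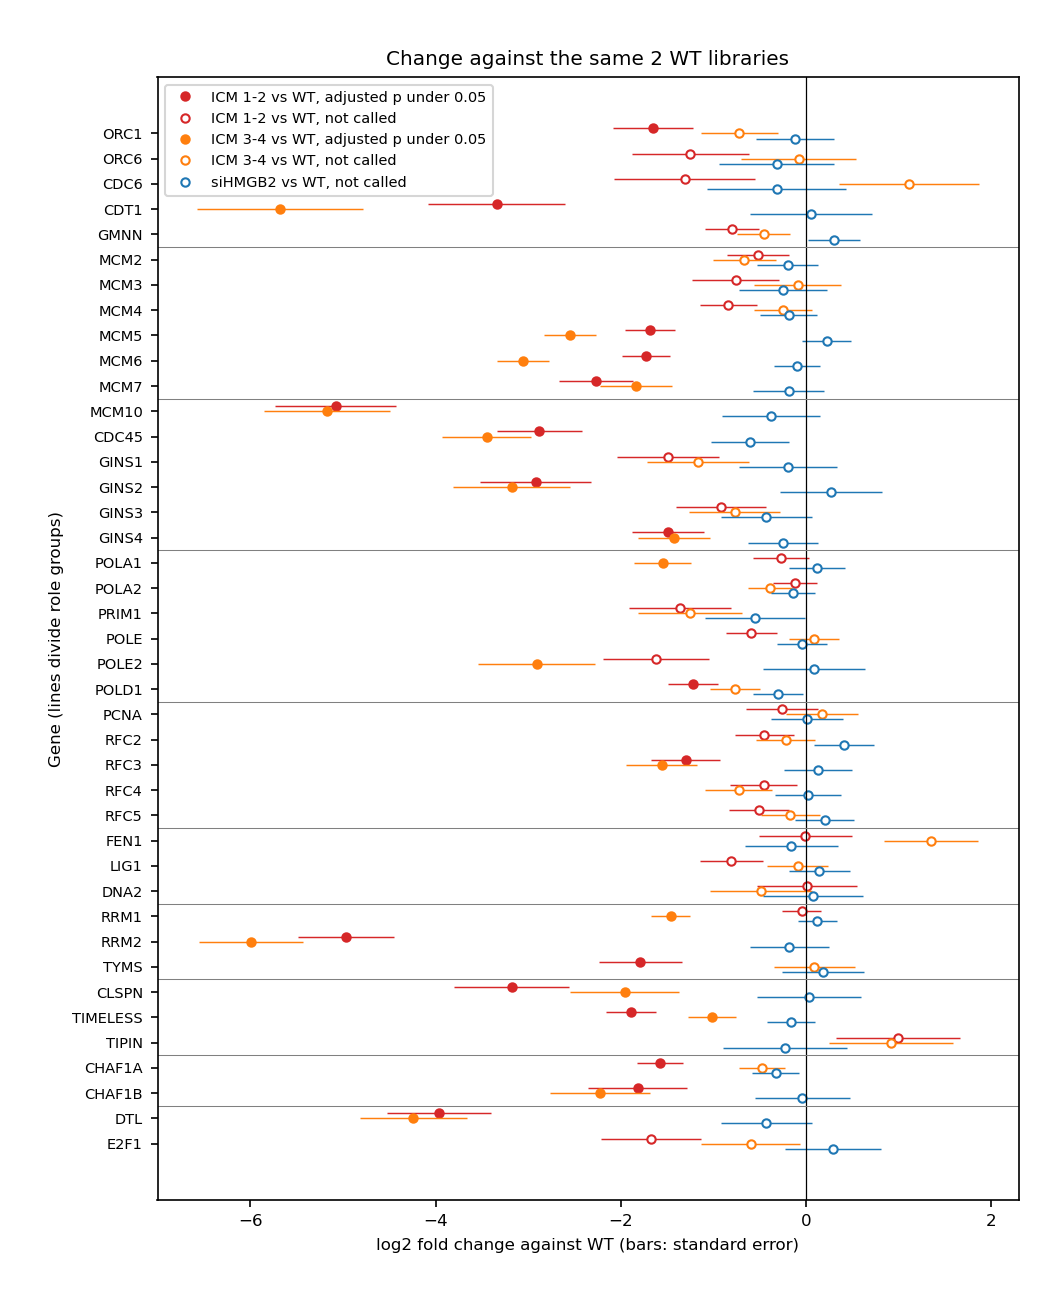
Points are log2 fold changes against the same 2 WT libraries (horizontal) for the 41 genes (vertical), red for ICM 1-2, orange for ICM 3-4 and blue for siHMGB2, with bars for the standard error and filled points for an adjusted p under 0.05. Filled points of the 14 genes called in both ICM sets run from RRM2 at -5.99 to TIMELESS at -1.02, both in ICM 3-4, and the siHMGB2 points stay between -0.61 and 0.41.

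Seen over all 10 ICM-treated libraries, knockdowns included, RRM2, MCM10 and DTL were below 10% of the WT mean in every one. CDT1, CDC45 and GINS2 joined them below 25%, and MCM5, MCM6, MCM7, CLSPN and CHAF1B below 50%. In all, 19 of the 41 genes lay below both WT libraries in all 10, and 22 did not. The matching shares over all genes were not counted, so these counts are a description alone. Over all genes, 25% lay below both WT libraries in ICM 1-2 and 33.3% in ICM 3-4. Those shares are for 2 libraries at a time, a looser condition, and are not the background for all 10. The median level of the 41 genes relative to WT was 32.6% in ICM 1, 56.5% in ICM 2, 57.2% in ICM 3 and 72.7% in ICM 4. It was 39.4% in siBANF1 1 and 57.6% in siBANF1 2, so the library pair that stood apart in reads outside features was also lowest here. Whether that composition sets the level was not tested. RNA of the replication-dependent histone genes, which cells normally make for S phase, did not fall with these genes. Its sum was 89 to 112 CPM in WT and siHMGB2 and 758 to 1736 CPM in the ICM-treated libraries. The part of library composition in this sum was not tested.

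ICM 3-4 were compared directly with ICM 1-2, and there treatment is the same by label and set differs. Of the 41 genes, 7 were called by edgeR (4 lower, 3 higher), where 19.5% of all genes were called (11% lower and 8.53% higher). RRM1 (log2 fold change -1.41 ± 0.21), MCM6 (-1.33 ± 0.26), POLA1 (-1.28 ± 0.31) and MCM5 (-0.87 ± 0.27) were lower in ICM 3-4, and TYMS (1.88 ± 0.45), CHAF1A (1.10 ± 0.25) and TIMELESS (0.87 ± 0.26) higher. This is a share near that of all genes. In CPM, ICM 3-4 lay below ICM 1-2 for 9 genes and above for 15 (58.5% without overlap), where 56% of all genes did not overlap, 27.1% lower and 29% higher. It was 0 of 41 with a fit to the 4 libraries alone (1.25% of all genes), 1 without ICM 4, 2 without ICM 1, 4 without ICM 3 and 13 without ICM 2, with 8.65%, 7.72%, 6.31% and 31.7% of all genes called in turn. With ICM 1 and siBANF1 1 left out it was 12 (27.2% of all genes).

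With HMGB2 knocked down in untreated cells, no replication gene passed the test. None of the 41 was called by edgeR, where 0% of all genes were called. By the same test none had an unadjusted p under 0.05, while 908 of the 19126 genes did. DESeq2 called none of the 41 and 0.387% of all genes. Their median log2 fold change was -0.12, and the extremes were -0.61 ± 0.42 for CDC45 and 0.41 ± 0.32 for RFC2. When the fit held the 4 compared libraries alone, 10.7% of all genes were called (2055) and still 0 of the 41. RRM2 was at 29.8 and 29.3 CPM, MCM6 at 25.8 and 24.3, MCM7 at 59.3 and 63.1 and PCNA at 86.9 and 73.0. In CPM, siHMGB2 lay below both WT libraries for 21 genes and above both for 4 (61% without overlap), where 49% of all genes did not overlap, 29.3% lower and 19.7% higher. HMGB2 itself was not called by edgeR with all 14 libraries in the fit, though it fell from 27.68 and 28.01 CPM to 3.18 and 3.52. That fit therefore missed a fall of this size. A p that misses the threshold does not show that the levels are equal.

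Set against ICM 1-2, siHMGB2 had 19 of the 41 genes higher and none lower by edgeR, where 15.3% of all genes were called (7.76% lower and 7.52% higher). The largest were RRM2 (log2 fold change 4.79 ± 0.51), MCM10 (4.70 ± 0.64), DTL (3.53 ± 0.55), CDT1 (3.40 ± 0.74) and CLSPN (3.21 ± 0.62). E2F1 (1.97 ± 0.54, edgeR adjusted p = 0.0346) and GMNN (1.10 ± 0.29, edgeR adjusted p = 0.0279) passed this test. In CPM, siHMGB2 lay above both ICM 1-2 libraries for 27 genes and below both for 1 (68.3% without overlap), where 57.3% of all genes did not overlap, 34.1% lower and 23.2% higher. This comparison uses the same ICM libraries as ICM 1-2 against WT. In a fit to the 4 compared libraries alone it called RRM2 only (0.727% of all genes), and without siHMGB2 1 or siHMGB2 2 it called 11 or 9 (4.8% or 3.41% of all genes). With ICM 1 and siBANF1 1 left out it called 23, with FEN1 (-0.77 ± 0.19) and TIPIN (-1.92 ± 0.23) lower and 21 higher, where 47.6% of all genes were called.

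In ICM-treated cells no replication gene passed the test for any knockdown. In the libraries labelled siSRRM2, 0 of 41 were called against ICM 1-2 by edgeR, where 0.178% of all genes were called (0.0784% lower and 0.0993% higher). Of the 41, 5 had an unadjusted p under 0.05 by edgeR, as did 2168 of the 19126 genes tested. DESeq2 called 3, with LIG1 and TYMS higher and RRM2 lower, where it called 3.8% of all genes. PCNA was at 173 and 181 CPM there, against 49.2 and 104.6 in ICM 1-2, with a log2 fold change of 1.22 ± 0.39 (edgeR adjusted p = 0.263). LIG1 was at 20.1 and 18.1 CPM against 6.80 and 7.72 (1.39 ± 0.34, edgeR adjusted p = 0.154), and TYMS at 32.4 and 31.2 against 6.52 and 13.5 (1.69 ± 0.45, edgeR adjusted p = 0.189). RRM2 was at 0.337 and 0.389 CPM against 0.963 and 1.49 (-1.74 ± 0.49, edgeR adjusted p = 0.213), 15 and 18 reads. The groups did not overlap for these 4 genes, nor for 13 of the 41 in all (31.7%, 6 lower and 7 higher), against 41.5% of all genes (21% lower and 20.5% higher). With ICM 1 and siBANF1 1 left out, with ICM 2 as the only control, 9 were called, where 10.5% of all genes were, with MCM7, PCNA, LIG1 and TYMS higher and CDC6, MCM2, FEN1, RRM2 and TIPIN lower.

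In the libraries labelled siBANF1, 0 of 41 were called against ICM 1-2 by edgeR, where 0% of all genes were called. By the same test 1 (TIMELESS, 0.77 ± 0.26) had an unadjusted p under 0.05, as did 591 of the 19126 genes. DESeq2 gave an adjusted p to 35 of the 41 and called 0 of them, where it called 0.125% of all genes. The libraries labelled siBANF1 lay below ICM 1-2 for 1 gene and above for 4 (12.2% without overlap), where 14.5% of all genes did not overlap, 8.22% lower and 6.24% higher. The 2 libraries of each group parted in the same way. CDC6 read 1.02 CPM in ICM 1 and 1.83 in siBANF1 1, but 7.57 in ICM 2 and 7.14 in siBANF1 2. FEN1 read 8.24 and 10.1 CPM in the first pair and 31.0 and 27.3 in the other, and TIPIN 3.89 and 3.91 against 18.7 and 18.4. PCNA read 49.2 and 38.8 CPM against 104.6 and 104.8. These 4 genes were picked for this pattern after their values were seen.

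In siCTCF, 0 of 41 were called against ICM 3-4 by edgeR or by DESeq2, and 0% of all genes were called by either. CTCF itself was thus not called, so the absence of calls does not show that the 41 were unchanged. By edgeR 1 of the 41 (CDC45, -1.22 ± 0.51) had an unadjusted p under 0.05, as did 125 of the 19126 genes. CDC45 was at 0.179 and 0.336 CPM, against 0.586 and 0.631 in ICM 3-4. In CPM, siCTCF lay below ICM 3-4 for 5 genes and above for 5 (24.4% without overlap), where 17.1% of all genes did not overlap, 9.55% lower and 7.52% higher. Of the genes called between the ICM sets, RRM1 read 25.3 and 24.9 CPM in siCTCF, MCM6 5.42 and 4.11 and POLA1 3.94 and 2.84, against 21.3 and 24.9, 4.27 and 3.63, and 2.89 and 3.51 in ICM 3-4. As given above, CTCF itself was furthest from ICM 3-4 in siCTCF 2.

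**Figure D5:**
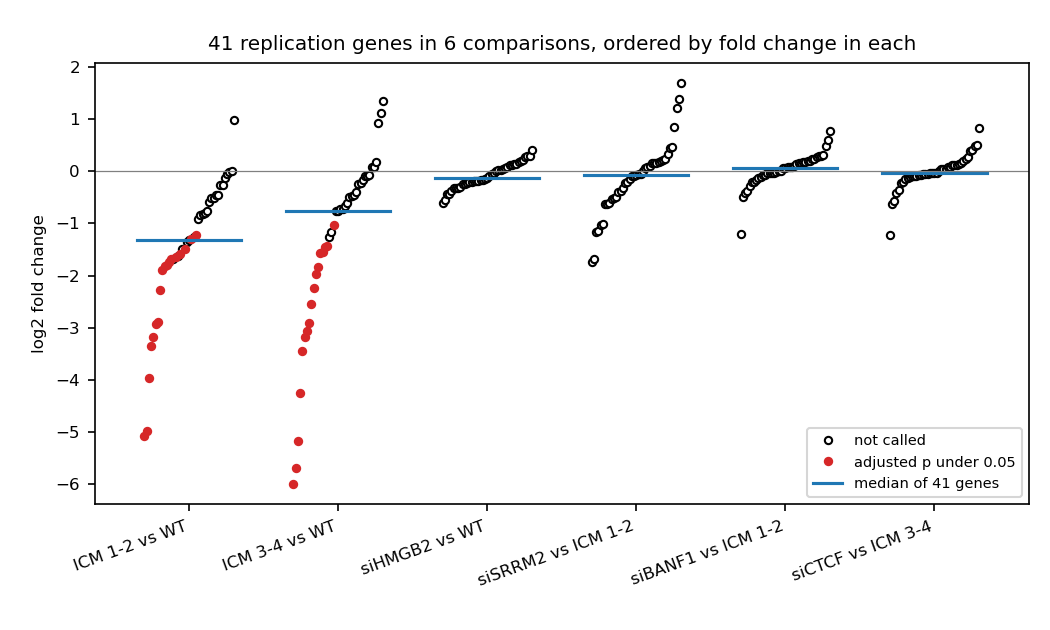
Points are log2 fold changes of the 41 genes in 6 comparisons, ordered by value within each, with filled red points for an adjusted p under 0.05 and a blue line at the median. Called genes appear only in both ICM against WT columns, where 18 and 17 are filled, and the knockdown columns centre between -0.12 and 0.06.

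Other genes of the same machinery were read from lists that do not overlap with the 41. Of 38 further replication factors tested, 6 fell and none rose in ICM 1-2 against WT (median log2 fold change -0.27), and 10 fell and none rose in ICM 3-4. These are 15.8% and 26.3% of the 38. Over all genes 13.5% and 30.3% were called in either direction, and 6.87% and 16% were called lower. TK1, the thymidine kinase, went from 19.4 and 21.8 CPM in WT to 0.943 and 0.313 in ICM 1-2 and 0.544 and 0.631 in ICM 3-4. PCLAF, a partner of PCNA, went from 8.82 and 7.57 CPM to 0.471 and 0.184, and to 0.0837 and 0.473. CHTF18, of an alternative clamp loader, had log2 fold changes of -2.21 ± 0.70 and -2.56 ± 0.72 and was called in ICM 3-4 alone. At the other end stood ORC5 (1.07 ± 0.58), ORC3 (0.89 ± 0.46) and RFC1 (0.68 ± 0.40), none called. ASF1B and CHTF8 did not pass the filter.

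Of 20 E2F, RB and DREAM regulators tested, 6 fell and none rose in ICM 1-2, and 10 fell and 3 rose in ICM 3-4 (30% and 65% of the list, where 13.5% and 30.3% of all genes were called). E2F8, a repressor of the family, had 34 and 55 reads in WT and 0 in ICM 1 and ICM 2, at least 20.5-fold lower with a floor of 3 counts per library. MYBL2, which turns DREAM target genes on later in the cycle, was at 6.41 and 8.18 CPM in WT, 0.0820 and 0.0921 in ICM 1-2, and 0 and 0.197 in ICM 3-4. FOXM1, which drives genes of mitosis, was at 11.9 and 12.9 CPM in WT, 0.492 and 0.332 in ICM 1-2, and 1.30 and 0.394 in ICM 3-4. E2F7, the other repressor of this kind, was above 0 in both sets (1.26 ± 0.52 and 2.08 ± 0.53) and rose in ICM 3-4 (edgeR adjusted p = 0.0166), as did LIN52 of the DREAM complex (1.14 ± 0.33, edgeR adjusted p = 0.025). LIN54 was called in neither set.

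Of 12 cyclins and kinases of G1 and S phase, 3 fell and 2 rose in ICM 1-2, and 4 fell and none rose in ICM 3-4 (41.7% and 33.3% of the list, where 13.5% and 30.3% of all genes were called). CCNA2, the cyclin of S phase, fell in both (log2 fold change -2.79 ± 0.45 and -3.29 ± 0.46), as did CCNE2 (-2.42 ± 0.50 and -2.07 ± 0.50), which acts at the start of replication. CDK4 fell in ICM 1-2 alone (-0.73 ± 0.21, edgeR adjusted p = 0.0423). CCND2, a G1 cyclin, was at 3.04 and 2.63 CPM in WT, 123.7 and 139.0 in ICM 1-2, and 4.43 and 5.09 in ICM 3-4. It rose in ICM 1-2 (5.39 ± 0.29, edgeR adjusted p = 7.07e-06), as did CDK6 (1.97 ± 0.42, edgeR adjusted p = 0.0145), with 0.50 ± 0.25 and -0.53 ± 0.41 in ICM 3-4. CCND1 had 0.91 ± 0.34 in ICM 1-2 and fell in ICM 3-4 (-1.17 ± 0.34, edgeR adjusted p = 0.0262).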

How the data were processed

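RNA was sequenced from 14 libraries of IMR90 cells. Per the labels' protocols, total RNA was taken in Trizol with a DNase step and TruSeq libraries were read from both ends on a NovaSeq instrument. The deposited values are raw read counts for each gene symbol, with a separate file for each library. The submitters' processing notes name STAR 2.7.3a, HTSeq 0.12.4, DESeq2 1.36.0 and hg38, with no role or order. The annotation release and strand setting are not given in the sources used here. The 5 lines that name no gene held 12.75% to 41.78% of a library's reads and entered neither library sizes nor tests.

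Genes were kept by filterByExpr over 7 cells (the 6 groups, ICM divided by set), which left 19126. After TMM scaling, the counts were tested with glmQLFTest of edgeR 4.0.16 (R 4.3.3) in 1 fit to all 14 libraries with 7 residual degrees of freedom. The threshold was a p of 0.05 after Benjamini-Hochberg adjustment over all genes tested. The test was checked on simulated data. Standard errors are of the log2 fold change. CPM uses unadjusted library totals. The members and the companion lists were chosen with earlier results of these data known. Values per library were given for MCM2 to MCM7, CDC6, CDT1, GMNN, E2F1, PCNA, RRM2, and the lowest and highest gene of each other role group in ICM 1-2 against WT, for up to 5 called genes in other comparisons, and from each companion list for the 3 lowest and 3 highest. Genes printed outside that rule are named as such or are further members. Promoters are from RefSeq (GRCh38.p14) by symbol, and exon overlaps from GENCODE v29.

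Alternatives were relative log expression or library totals as scaling, no filter, a mean of at least 1 CPM, DESeq2 1.42.0 (Wald), fits to just the libraries compared, a replicate block, a minimum change of 2-fold, the other ICM set as control, and each library left out in turn. Fits to 13305 protein-coding genes and without ICM 1 and siBANF1 1 were added after seeing the data. Python 3.11.15 was used with numpy 2.4.6, pandas 2.3.3 and matplotlib 3.10.9.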

Additional observations from a re-analysis of the deposited data

Results flagged for a closer look

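Among the 4 ICM libraries, a gap test of the highest or lowest library singled out 2 of the 41 genes, and chance does so in about 1 in 20 groups. MCM3 in ICM 1, at 12.07 CPM, was far below the other 3 libraries (gap 0.842 of the range). CDC45 in ICM 2, at 1.032 CPM and 56 reads, was above the others (gap 0.843 of the range).

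The effect of ICM against WT differed between the library sets by a direct test in edgeR for 7 of the 41 genes, where 19.5% of all genes were called, so the share is near that of all genes. With the compared libraries alone it was 0. The log2 fold change in ICM 3-4 minus that in ICM 1-2 was -0.87 for MCM5, -1.33 for MCM6, -1.28 for POLA1, -1.41 for RRM1, 1.88 for TYMS, 0.87 for TIMELESS and 1.10 for CHAF1A. The sets differ in their labels, depth and small RNA share, and these cannot be told apart from any difference in the cells.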

How the results depend on the processing

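No call changed direction under any alternative. For ICM 1-2 against WT, 18 genes became 1 with the compared libraries alone, 11 with the replicate block, and 9 to 16 with a library left out. For ICM 3-4 against WT, 17 became 28 without ICM 1 and siBANF1 1 and 11 to 13 with a library left out. For siHMGB2 against ICM 1-2, 19 became 1 with the compared libraries alone, 9 with the block and 9 to 20 with a library left out. Between the ICM sets, 7 became 0 with the compared libraries alone (1.25% of all genes). The median was 0.15 in the main fit and -0.18 without both libraries named above. It lay between -0.18 and 0.53 with 1 left out. For siSRRM2, 0 became 4 with no filter, 3 by DESeq2 and 8 with ICM 3-4 as control. Of all genes, 2.41%, 3.8% and 22.4% were called there in turn. Without both libraries its median was -0.19, against -0.08 in the main fit. With the other ICM set as control, siBANF1 had 5 and siCTCF 7, where 15.8% and 18.6% of all genes were called. These counts remained 0 for siHMGB2 against WT in every alternative.

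Over all genes, calls in ICM 1-2 against WT went from 2582 to 33 with the compared libraries alone, and in siSRRM2 from 34 to 727 by DESeq2. Scaling by library totals moved the median of all genes from 0.10 to 0.24 in ICM 1-2 and from -0.02 to 0.18 in ICM 3-4 against WT. It called 15 and 16 of the 41, where 13.7% and 30.8% of all genes were called. The replicate numbers are shared by labels alone, and deviations of same-numbered libraries correlated by -0.08 for ICM 1-2 and WT and 0.81 for siBANF1 and ICM 1-2. With the block, 0 of the 41 were called for siHMGB2 against WT, siSRRM2, siBANF1 and siCTCF. Of all genes, 12%, 0.539%, 0.00523% and 0.0209% were called there in turn. With 2 libraries in a group, and 1 to 15 reads for CDT1 and MCM10 in some, small fold changes could not be resolved.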
